A study of Mus musculus with 19 samples.

Results

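The BMP and TGF-beta signalling genes were followed across 19 RNA sequencing libraries of mouse embryonic kidney cells. The set of 52 genes was chosen by gene symbol and holds 14 ligands, 12 receptors and co-receptors, 8 SMAD genes, 5 genes downstream of BMP (4 Id genes and Bambi), 9 secreted proteins that bind the ligands, and 4 latent TGF-beta binding proteins. All 52 were found in both deposited tables, which share 20103 gene names. The series covers nephron progenitors, marked by the transcription factor SIX2, and stromal progenitors, marked by FOXD1, each set against the cells left after its sort. All mice were of the CFW strain. At E16.5 (E, day of embryonic development), SIX2+ and SIX2- cells of the nephrogenic zone, the outer rim of the kidney where nephrons form, were separated, and unsorted nephrogenic zone cells (NZC) were kept beside them (n = 3 libraries each, no allele listed). These titles carry the name MARIS, a method in which cells are stained for a protein inside the cell, sorted, and used for RNA. Also at E16.5, GFP+ and GFP- cells came from kidneys with the Six2TGC/+ genotype, in which the Six2 regulatory region drives GFP and Cre (n = 3 each). At E14.5, Tdt+ and Tdt- cells came from Foxd1Cre;Tdt kidneys, in which cells that express Foxd1, and the descendants of such cells, carry the Tdt label (n = 2 each). Whether replicate libraries are from different animals is not stated, and each p-value is therefore set against a spread that could be purely technical.

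Ligands of this family bind pairs of type I and type II receptor kinases, which phosphorylate receptor SMADs. BMP receptors act mainly through SMAD1, SMAD5 and SMAD9, and TGF-beta and activin receptors through SMAD2 and SMAD3; all of these enter the nucleus with SMAD4, and Id genes are among the best known BMP targets. TGF-beta is secreted in a latent form held in the matrix by binding proteins, and BMPs are held back by secreted antagonists. In the embryonic mouse kidney, Bmp7 is required to keep nephron progenitors from being lost early.

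Values are RPKM, which scale reads to gene length and to the depth of the library, and fold changes are differences of log2(RPKM + 1), which understate the change of genes with low values. Estimated depth was 25700000 to 44700000 reads in the SIX2 and GFP sorts. The Tdt+ libraries had an estimated 8210000 and 9160000 reads, the Tdt- libraries 25800000 and 29500000. NZC replicate 2 stood apart, with an estimated 3030000 reads and correlations of 0.927 and 0.929 with the other NZC libraries, against 0.981 to 0.996 for every other pair within a group; since all 15 E16.5 libraries shared one estimate of the spread, counts are also given without it. As a check of the labels, Six2 was at 295 to 458 RPKM in SIX2+ and 4.43 to 46.8 in SIX2- libraries, at 312 to 348 in GFP+ and 2.70 to 16.8 in GFP- libraries, and at 0.650 and 2.14 in Tdt+ and 117 and 96.6 in Tdt- libraries. Foxd1 was at 205 and 102 RPKM in Tdt+ and 29.9 and 25.2 in Tdt- libraries, but of the 10 stromal markers 1 was called higher (Foxd1) and 1 lower (Dcn) in Tdt+ cells, the median change was -0.13, and they summed to 1657 to 2545 RPKM in Tdt+ and 2397 to 3277 in Tdt- libraries. It was also present in SIX2+ libraries, at 15.999 to 30.6, against 51.4 to 103 in SIX2- libraries, and in GFP+ libraries, at 28.6 to 44.3, against 62.5 to 103 in GFP- libraries. The nephron progenitor markers (8 genes) summed to 1040 to 1393 RPKM in SIX2+, 46.1 to 150 in SIX2-, 974 to 1079 in GFP+, 43.8 to 75.8 in GFP-, 18.4 to 23.4 in Tdt+ and 393 to 444 in Tdt- libraries.

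**Figure D1:**
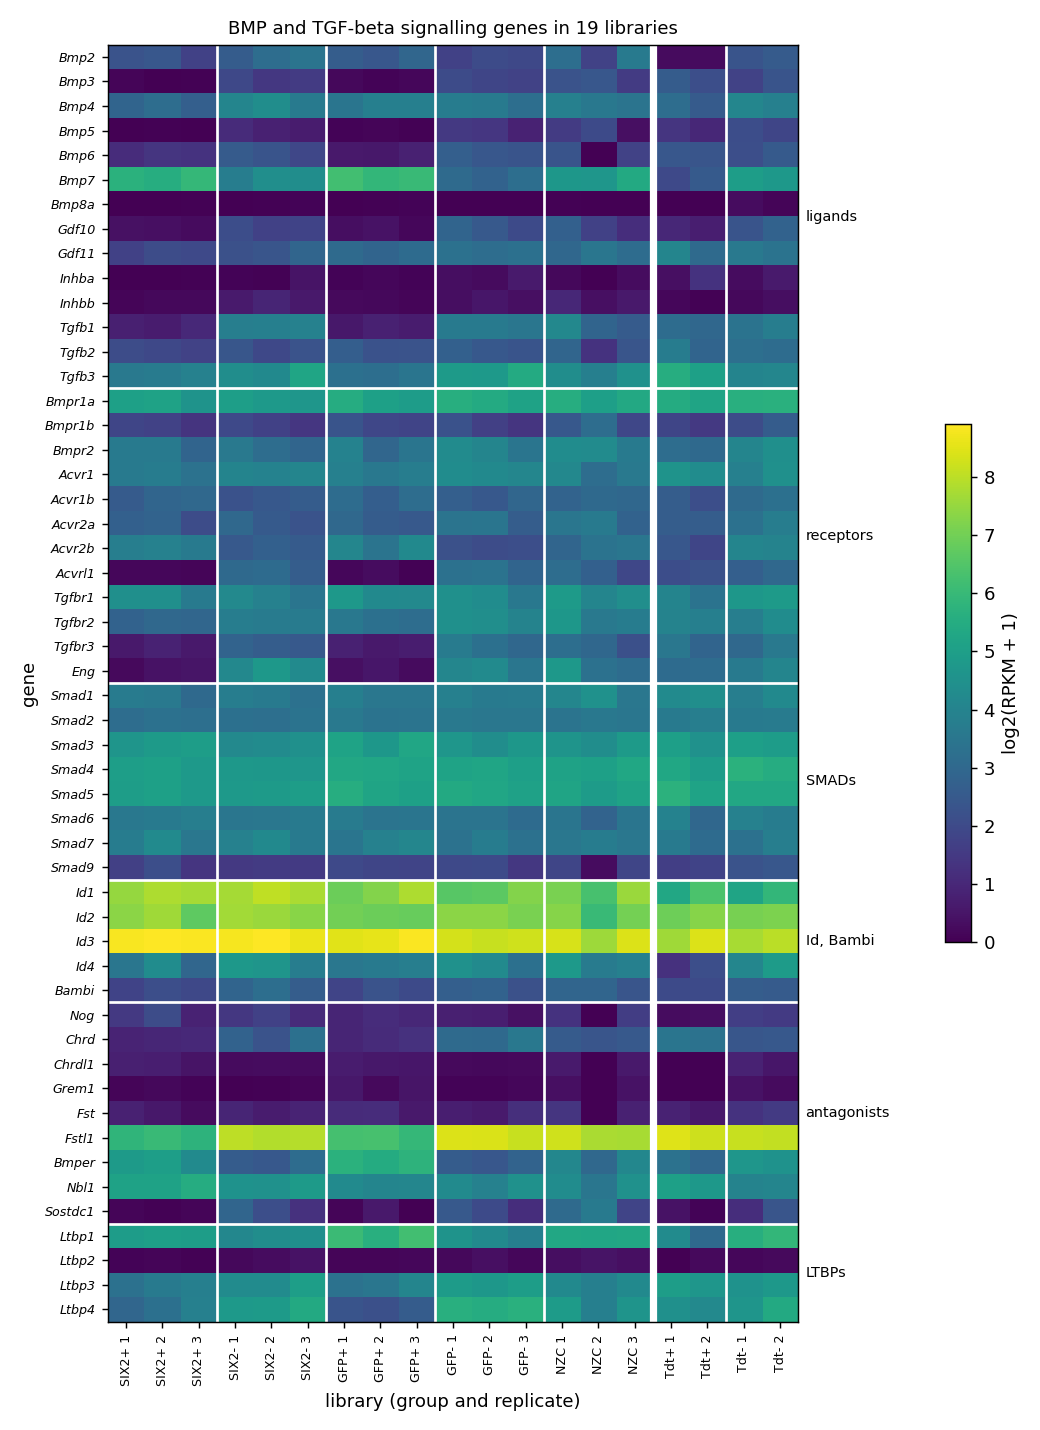
Level of the 52 genes (rows, grouped by role) in the 19 libraries (columns, grouped by fraction), as log2(RPKM + 1) in colour. The thick white line separates the E16.5 libraries from the E14.5 libraries, which were normalised separately. Id1, Id2, Id3 and Fstl1 are bright rows in every fraction, and the rows of Tgfb1, Acvrl1 and Eng are dark in SIX2+ and GFP+ libraries.

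Which of these genes mark SIX2+ nephron progenitors was asked first, in 2 separate sorts. In SIX2+ cells 5 members rose and 16 fell relative to SIX2- cells, of 46 that passed the filter on low values. Over all 12798 genes tested, 8.36% were called higher, 15.9% lower and 24.2% in either direction. The median change was -0.26 over the members and 0.04 over all genes tested. In GFP+ cells 5 members rose and 15 fell relative to GFP- cells, where 15.9% of all genes were called higher, 17.0% lower and 32.9% in either direction, with medians of -0.17 over the members and 0.09 over all genes. The same 5 genes rose in both sorts: Bmp7, Acvr2b, Smad3, Bmper and Ltbp1. Another 13 fell in both, which is 81.3% of the members lower in SIX2+ cells and 86.7% of those lower in GFP+ cells: Bmp3, Gdf10, Tgfb1, Tgfb3, Acvrl1, Tgfbr2, Tgfbr3, Eng, Chrd, Fstl1, Sostdc1, Ltbp3 and Ltbp4. The sharing of calls between the sorts was not counted over all genes, so it is not shown to be particular to the members. In these bulk samples, fewer cells of a type and less RNA per cell cannot be told apart. Without NZC replicate 2 the counts were 6 higher and 19 lower in SIX2+ cells and 7 higher and 16 lower in GFP+ cells, where the same fits called 13.5% of all genes higher and 19.4% lower in SIX2+ cells, and 23.5% and 20.9% in GFP+ cells. Of all called genes, 34.5% were higher in SIX2+ cells, whereas quantile normalisation gave 1572 higher among 3144 calls, and 48.3% in GFP+ cells, a share that rescaling to TPM moved to 36.9%.

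**Figure D2:**
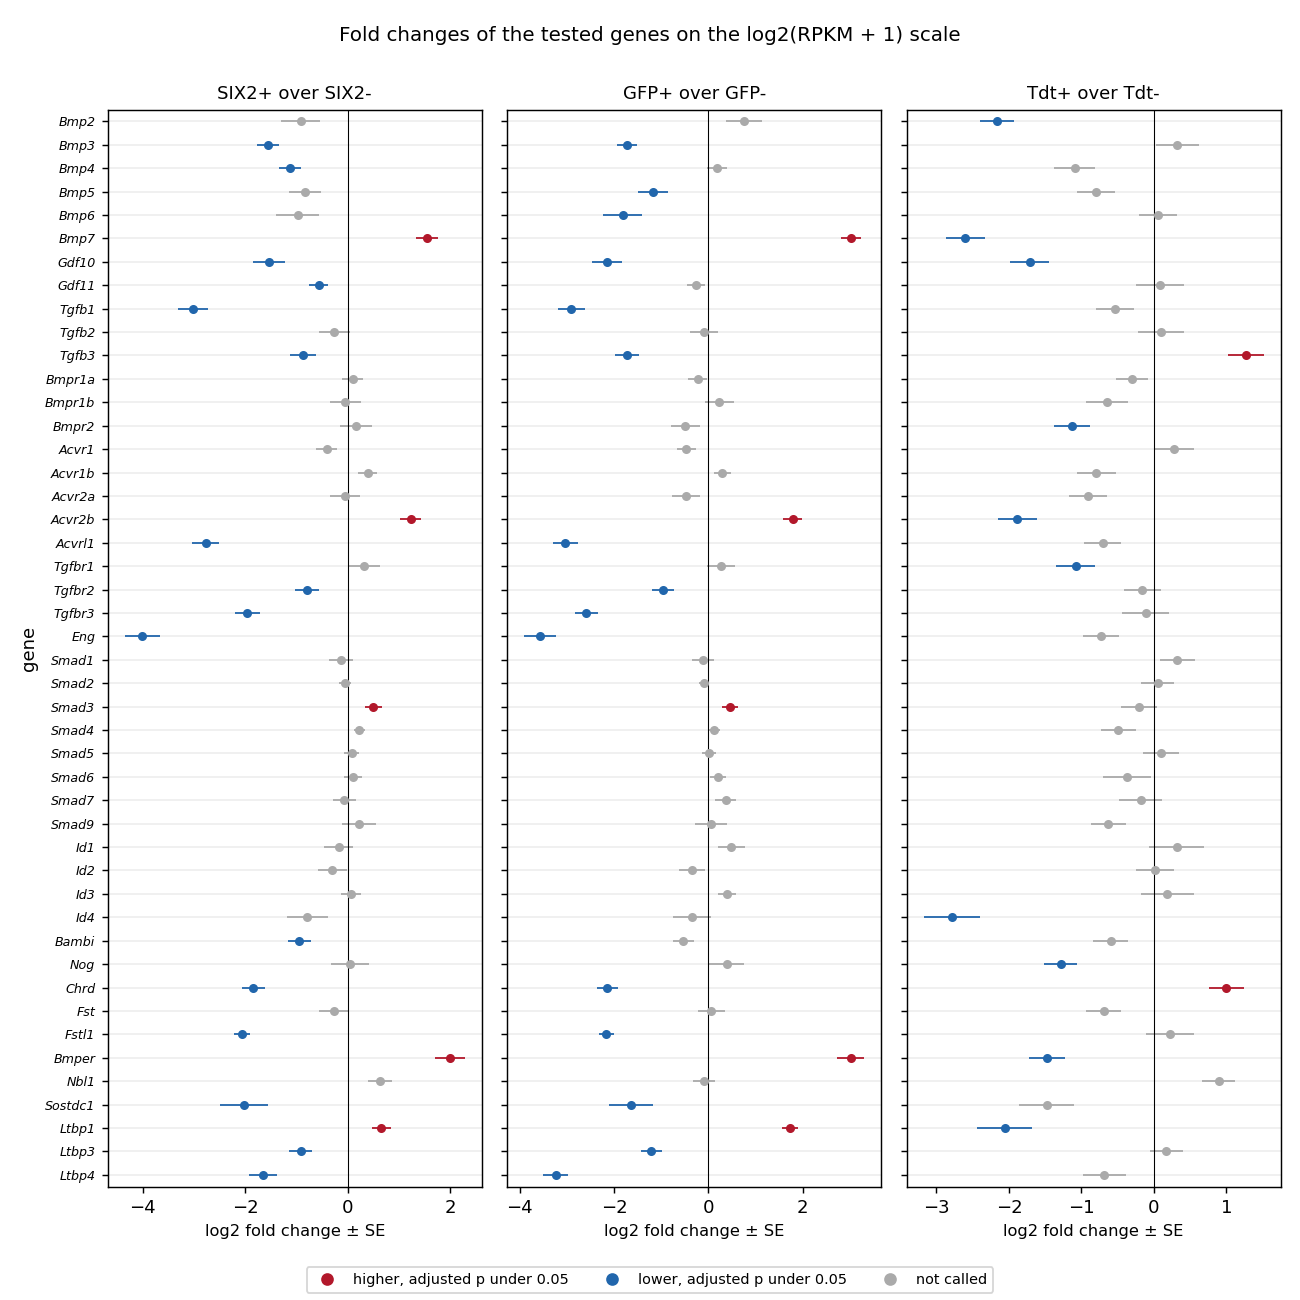
Log2 fold change (x axis, log2(RPKM + 1) scale, bars ± SE) of each of the 46 tested genes (y axis) for SIX2+ over SIX2-, GFP+ over GFP- and Tdt+ over Tdt- cells. Red and blue points were called higher or lower at an adjusted p under 0.05. Bmp7, Acvr2b, Bmper and Ltbp1 are red for SIX2+ and GFP+ cells and blue for Tdt+ cells.

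Among the ligands, Bmp7 (chromosome 2, 172868012 to 172940321, minus strand, GRCm38) was at 51.0, 46.0 and 60.02 RPKM in SIX2+ libraries, against 12.6, 20.2 and 19.7 in SIX2- libraries. In the other sort it was at 73.7, 59.1 and 64.8 in GFP+ libraries, against 7.37, 6.02 and 8.32 in GFP- libraries. Every positive library lay above every negative one, and Bmp7 rose by 1.55 ± 0.21 on the log2 scale in SIX2+ cells (SE; adjusted p = 8.84e-05) and by 3.02 ± 0.21 in GFP+ cells (adjusted p = 9.94e-08). Unsorted NZC held 25.4, 24.4 and 41.2 RPKM, between the positive and negative fractions of both sorts. No other tested ligand was called higher in either positive fraction.

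Tgfb1 (chromosome 7, 25687002 to 25705077, plus strand), one of the 3 TGF-beta ligands, was at 0.739, 0.583 and 1.05 RPKM in SIX2+ libraries, against 13.1, 13.2 and 14.1 in SIX2- libraries. The other sort gave 0.475, 0.742 and 0.599 in GFP+ libraries, against 11.4, 11.3 and 10.2 in GFP- libraries. The groups were far apart, with changes of -3.02 ± 0.29 in SIX2+ cells (adjusted p = 3.03e-06) and -2.90 ± 0.29 in GFP+ cells (adjusted p = 3.25e-06). Tgfb3, another TGF-beta ligand, was at 11.1, 12.2 and 14.1 RPKM in SIX2+ libraries, against 19.7, 17.7 and 37.2 in SIX2- libraries. It was at 8.70, 8.41 and 9.91 in GFP+ libraries, against 28.1, 27.4 and 42.2 in GFP- libraries. The groups did not overlap in either sort, and SIX2- replicate 3 and GFP- replicate 3 were the highest of their groups. Tgfb3 fell by 0.87 ± 0.25 in SIX2+ cells (adjusted p = 0.0203) and by 1.72 ± 0.25 in GFP+ cells (adjusted p = 0.000116). Its call in SIX2+ cells was lost without SIX2+ replicate 1 (adjusted p = 0.0752), SIX2+ replicate 2 (0.0605) or SIX2- replicate 3 (0.0920), the last of which also took the fold to -0.55. Tgfb2 ranged from 2.41 to 6.49 RPKM over the 14 E16.5 libraries other than NZC replicate 2, and was called in neither sort. Markers of leukocytes, which express Tgfb1, moved with it: all 8 fell in both sorts, and they summed to 0.829 to 10.3 RPKM in SIX2+ and 78.2 to 106 in SIX2- libraries, and to 0.253 to 4.71 in GFP+ and 77.8 to 111 in GFP- libraries. None of the 8 was at 0 in all libraries of these groups, and their part in the change of Tgfb1 was not tested.

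Bmp4 was at 6.25, 8.11 and 5.45 RPKM in SIX2+ libraries, against 15.6, 19.6 and 11.8 in SIX2- libraries. In the GFP sort it was at 10.1, 13.3 and 13.3 in GFP+ libraries, against 12.3, 11.6 and 8.25 in GFP- libraries. The SIX2 groups were apart and the GFP groups overlapped: Bmp4 fell by 1.12 ± 0.21 in SIX2+ cells (adjusted p = 0.00115), while its change in GFP+ cells was 0.19 ± 0.21 (adjusted p = 0.539). Bmp3, a family member that opposes other BMPs, averaged 0.0544 ± 0.0391 RPKM in SIX2+ and 2.14 ± 0.592 in SIX2- cells, and 0.108 ± 0.0404 in GFP+ and 2.69 ± 0.377 in GFP- cells (SD, n = 3 each), and it fell in both sorts. So did its close relative Gdf10, which averaged 0.265 ± 0.0552 RPKM in SIX2+ and 2.69 ± 0.537 in SIX2- cells, and 0.234 ± 0.114 in GFP+ and 4.64 ± 1.71 in GFP- cells. Gdf11, an activin-like ligand, fell in SIX2+ cells by 0.57 ± 0.19 (adjusted p = 0.042), a call lost when any one of 5 of the 6 libraries was left out (adjusted p of 0.0588 to 0.194; fold -0.36 without SIX2- replicate 3), and changed by -0.25 ± 0.19 in GFP+ cells (adjusted p = 0.335). Bmp5 and Bmp6, close relatives of Bmp7, fell in GFP+ cells by 1.17 ± 0.32 and 1.81 ± 0.41 (adjusted p = 0.0114 and 0.00378), though the fold of Bmp5 was -2.07 after rescaling to TPM and -0.75, no longer called, after quantile normalisation (0.101). In SIX2+ cells their changes were -0.84 ± 0.32 (adjusted p = 0.0722) and -0.98 ± 0.41 (0.108), and both were called without NZC replicate 2 (0.0198 and 0.00108). Bmp2 moved by -0.92 ± 0.38 in SIX2+ cells (adjusted p = 0.104) and by 0.75 ± 0.38 in GFP+ cells (0.152), and without NZC replicate 2 both passed, at 0.00787 and 0.0189.

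Among the receptors, Acvr2b (chromosome 9, 119402118 to 119434995, plus strand), a type II receptor for activins, GDF11 and some BMPs, was at 13.1, 14.3 and 11.9 RPKM in SIX2+ libraries, against 4.56, 5.56 and 4.89 in SIX2- libraries. It was at 15.97, 9.83 and 17.9 in GFP+ libraries, against 3.60, 3.17 and 3.36 in GFP- libraries. All positive libraries were higher, and Acvr2b rose by 1.23 ± 0.20 in SIX2+ cells (adjusted p = 0.000408) and by 1.79 ± 0.20 in GFP+ cells (adjusted p = 1.02e-05). Acvr2a, the related type II receptor, changed by -0.05 ± 0.30 and -0.47 ± 0.30 (adjusted p = 0.934 and 0.251), the first of which was 0.06 after quantile normalisation.

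Eng, or endoglin (chromosome 2, 32646595 to 32682669, plus strand), is a co-receptor found mainly on endothelial cells. It was at 0.164, 0.367 and 0.420 RPKM in SIX2+ libraries, against 17.0, 26.2 and 18.2 in SIX2- libraries. It was at 0.289, 0.452 and 0.200 in GFP+ libraries, against 16.2, 18.1 and 10.4 in GFP- libraries. On the log2(RPKM + 1) scale the change of Eng was the largest of the members in SIX2+ cells, at -4.01 ± 0.34 (adjusted p = 8.0e-07), and in GFP+ cells, at -3.56 ± 0.34 (adjusted p = 1.8e-06). Acvrl1, the type I receptor that works with endoglin, was at 0.125, 0.127 and 0.0914 RPKM in SIX2+ libraries, against 7.19, 7.73 and 5.13 in SIX2- libraries. It was at 0.118, 0.217 and 0.0491 in GFP+ libraries, against 8.96, 9.60 and 6.40 in GFP- libraries. Again no library of one group came near the other, with changes of -2.77 ± 0.27 (adjusted p = 2.86e-06) and -3.03 ± 0.27 (adjusted p = 7.84e-07). Endothelial markers moved with these genes: the 10 markers summed to 4.23 to 6.97 RPKM in SIX2+ and 48.9 to 180 in SIX2- libraries, and to 6.45 to 12.5 in GFP+ and 45.0 to 91.4 in GFP- libraries. Of the 10, 9 fell in SIX2+ and 8 in GFP+ cells; 8 stayed below 1 RPKM in every SIX2+ library and 7 in every GFP+ library, and none was at 0 in all libraries of either. Their part in the change of Eng and Acvrl1 was not tested.

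Tgfbr3, or betaglycan, a co-receptor that presents TGF-beta to its signalling receptors, was at 0.537, 0.801 and 0.530 RPKM in SIX2+ libraries, against 6.17, 5.20 and 4.602 in SIX2- libraries. It was at 0.784, 0.542 and 0.636 in GFP+ libraries, against 11.9, 8.81 and 6.79 in GFP- libraries. It was lower in every positive library, by 1.96 ± 0.24 (adjusted p = 3.59e-05) and 2.59 ± 0.24 (adjusted p = 1.77e-06) on the log2 scale. Tgfbr2, the type II receptor for TGF-beta, averaged 6.60 ± 0.536 RPKM in SIX2+ and 12.2 ± 0.393 in SIX2- cells, and 9.18 ± 1.44 in GFP+ and 18.8 ± 3.33 in GFP- cells (SD, n = 3 each). It fell in both sorts (adjusted p = 0.022 and 0.00625), but without SIX2+ replicate 1 or 3, or SIX2- replicate 1 or 2, the SIX2 value was between 0.0524 and 0.0767. The type I receptors other than Acvrl1 were present in all E16.5 libraries and none was called. Over the 14 libraries other than NZC replicate 2, Bmpr1a, a BMP receptor, ranged from 22.8 to 47.1 RPKM, and Bmpr1b, a close relative, from 1.54 to 4.52. Acvr1, also a BMP receptor, ranged from 9.37 to 18.97, the activin receptor Acvr1b from 3.79 to 8.13 and the TGF-beta receptor Tgfbr1 from 9.96 to 28.3. The BMP type II receptor Bmpr2, at 6.30 to 19.1, was not called either. With the replicate number as a block, Acvr1b passed in SIX2+ cells (adjusted p = 0.0299), at 6.10 ± 1.07 RPKM in SIX2+ and 4.41 ± 0.604 in SIX2- cells. Without NZC replicate 2, Acvr1 passed in GFP+ cells (0.0234), at 12.4 ± 1.497 RPKM in GFP+ and 17.5 ± 1.56 in GFP- cells.

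**Figure D3:**
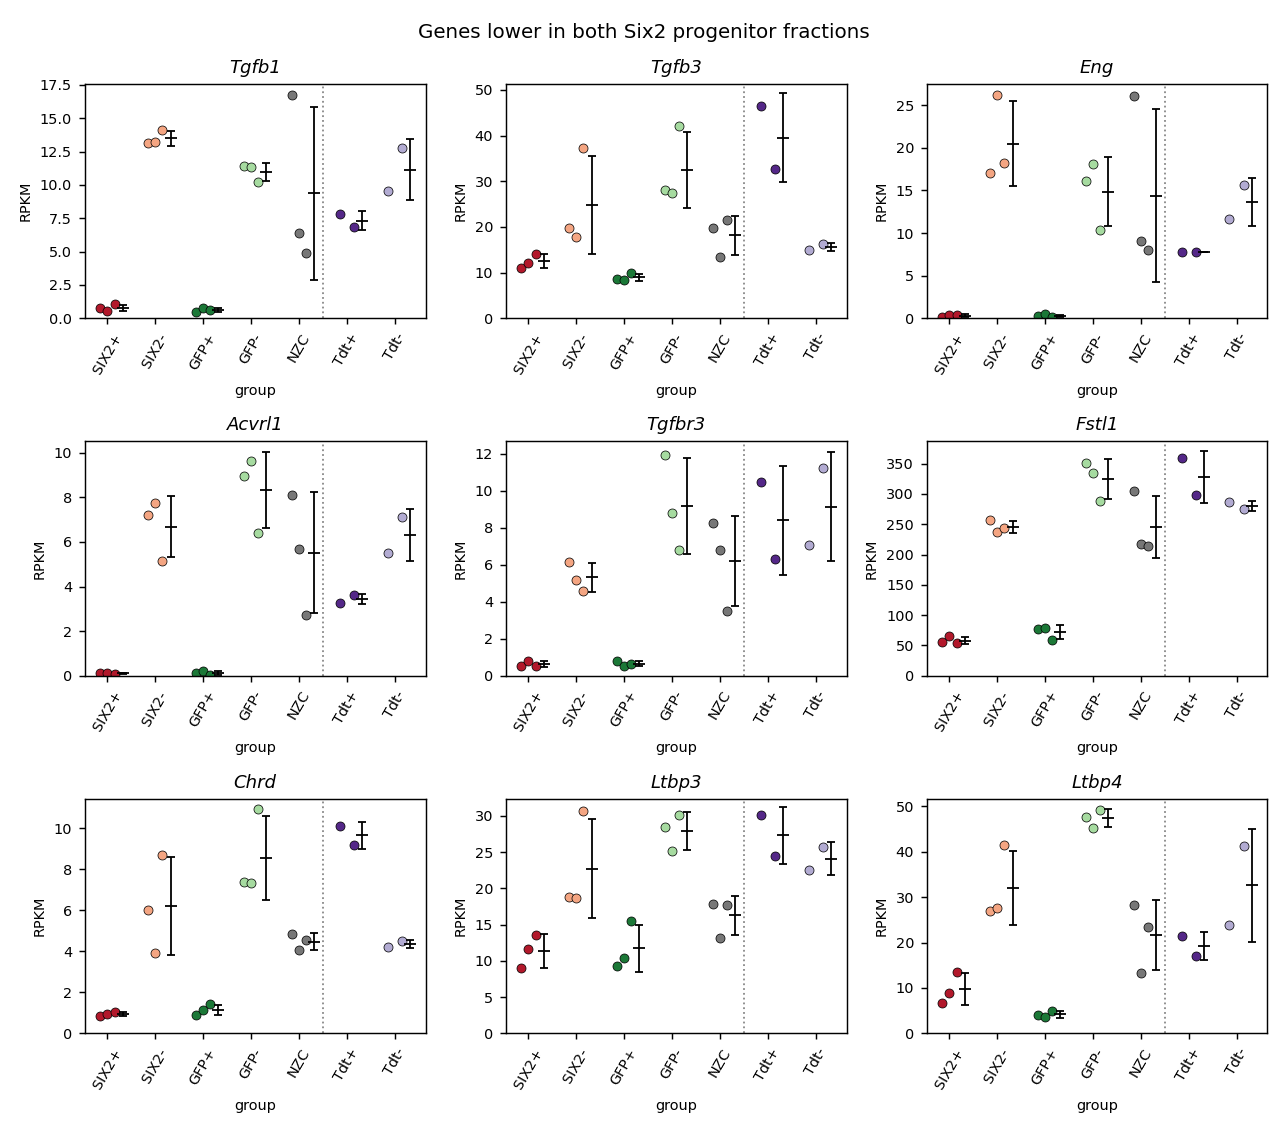
RPKM (y axis) of 9 genes that fell in both SIX2+ and GFP+ cells, by group (x axis); points are libraries, and the bar beside them is the mean ± SD. The dotted line separates the E16.5 from the separately normalised E14.5 libraries. For Tgfb1, Eng, Acvrl1 and Tgfbr3 the SIX2+ and GFP+ points sit close to the bottom, while Tdt+ points do not.

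Of the 8 SMAD genes, Smad3 alone was called. Smad3, which carries TGF-beta and activin signals, was at 23.9, 28.0 and 30.0 RPKM in SIX2+ libraries, against 17.4, 18.6 and 21.0 in SIX2- libraries. It was at 35.0, 25.6 and 37.9 in GFP+ libraries, against 24.5, 19.8 and 25.5 in GFP- libraries. The groups were close but did not overlap in either sort, and Smad3 rose by 0.50 ± 0.17 in SIX2+ cells (adjusted p = 0.048) and by 0.47 ± 0.17 in GFP+ cells (adjusted p = 0.0489). Both values lie next to the threshold: in each sort, the call was lost on leaving out any one of 5 of the 6 libraries (adjusted p of 0.0529 to 0.164 in the SIX2 sort and 0.0556 to 0.188 in the GFP sort). Rescaling to TPM ended the call in both sorts (0.159 in the SIX2 sort and 0.231 in the GFP sort). So did quantile normalisation (0.0718 and 0.0796), a fit without the trend, and either change of the filter on low values. The other SMAD genes were called in neither sort. Smad1 ranged from 7.20 to 15.9 RPKM over the E16.5 libraries other than NZC replicate 2, Smad2 from 8.05 to 11.2, Smad4 from 24.8 to 39.7 and Smad5 from 27.0 to 46.4. The inhibitory Smad6 and Smad7 ranged from 7.71 to 13.0 and from 8.91 to 18.2, and Smad9 from 1.60 to 3.45. The intervals of the change in SIX2+ cells were narrow for Smad2 (95% interval -0.30 to 0.19) and Smad5 (-0.23 to 0.39) and wider for Smad9 (-0.51 to 0.94).

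Id genes, which encode inhibitors of basic helix-loop-helix factors, included some of the highest levels of the set. Id3 ranged from 285 to 479.7 RPKM over the E16.5 libraries other than NZC replicate 2, Id1 from 95.3 to 264, Id2 from 103 to 204 and Id4 from 6.71 to 27.6. Neither sort moved any of them past the threshold. For Id1 the change was -0.18 ± 0.29 in SIX2+ cells (95% interval -0.80 to 0.43) and 0.49 ± 0.29 in GFP+ cells (-0.13 to 1.10), and for Id3 it was 0.06 ± 0.19 and 0.39 ± 0.19. Without NZC replicate 2, Id3 passed in GFP+ cells (adjusted p = 0.0176), with 401 ± 49.1 RPKM in GFP+ and 305 ± 20.0 in GFP- cells (SD, n = 3 each). Bambi, a pseudoreceptor that dampens signalling, was at 2.45, 3.45 and 2.83 RPKM in SIX2+ libraries, against 6.37, 8.21 and 5.17 in SIX2- libraries. The groups did not overlap, and Bambi fell by 0.94 ± 0.22 (adjusted p = 0.00564). In GFP+ cells its change was -0.53 ± 0.22 (adjusted p = 0.0834), which passed with the replicate number as a block (0.0338) and without GFP- replicate 3 (0.0336).

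**Figure D4:**
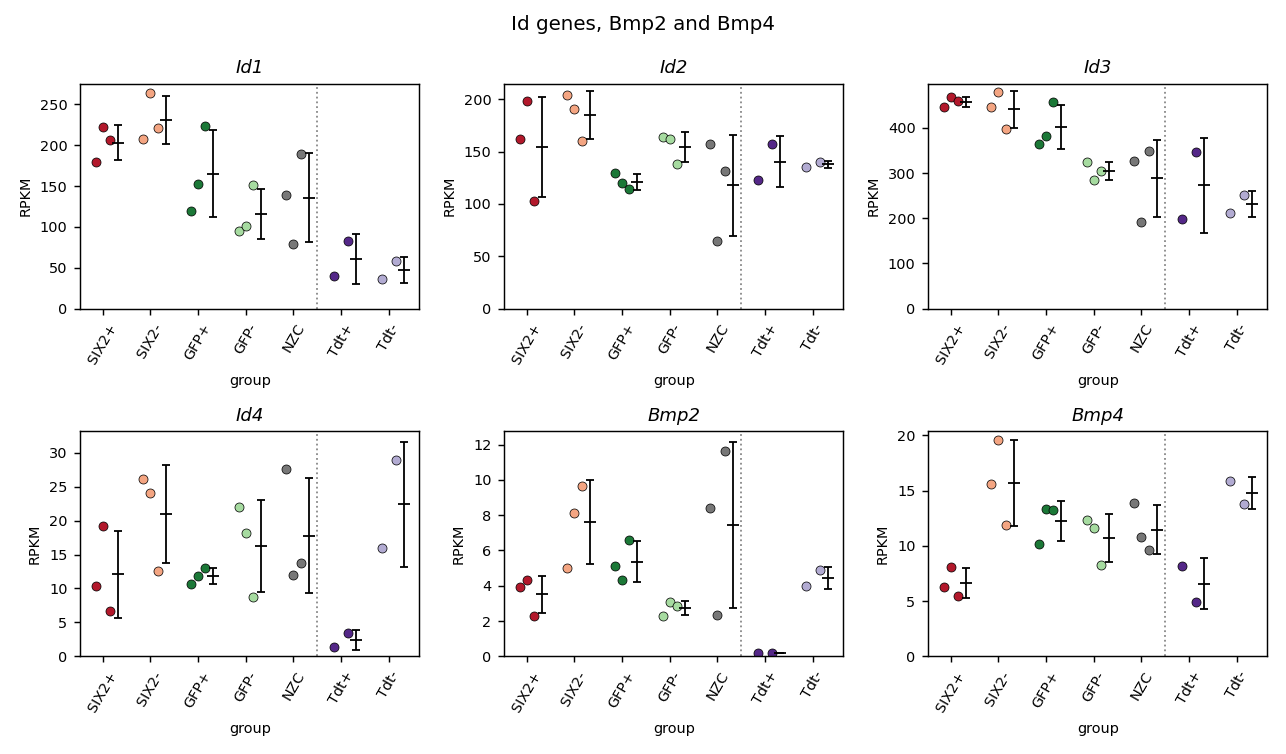
RPKM (y axis) of Id1, Id2, Id3, Id4, Bmp2 and Bmp4 by group (x axis); points are libraries and bars are mean ± SD. Id1, Id2 and Id3 were called in no sort, whereas Id4 and Bmp2 are lower in both Tdt+ libraries than in both Tdt- libraries.

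Of the secreted proteins that bind ligands, Bmper (chromosome 9, 23223076 to 23485200, plus strand), which binds BMPs and can raise or lower their activity, was at 28.0, 31.2 and 18.4 RPKM in SIX2+ libraries, against 4.98, 4.51 and 7.79 in SIX2- libraries. It was at 50.5, 43.1 and 53.1 in GFP+ libraries, against 5.06, 4.33 and 6.14 in GFP- libraries. Positive libraries were all higher, and Bmper rose by 1.99 ± 0.29 (adjusted p = 0.000128) and 3.02 ± 0.29 (adjusted p = 1.8e-06). Fstl1, a secreted glycoprotein that binds BMP4, was at 56.0, 65.4 and 53.3 RPKM in SIX2+ libraries, against 256, 237 and 243 in SIX2- libraries. It was at 77.6, 79.3 and 59.7 in GFP+ libraries, against 350.3, 335 and 288 in GFP- libraries. With little spread within groups, Fstl1 fell by 2.06 ± 0.16 (adjusted p = 3.26e-07) and 2.16 ± 0.16 (adjusted p = 1.47e-07). Chrd, or chordin, a BMP antagonist, was at 0.831, 0.922 and 1.06 RPKM in SIX2+ libraries, against 6.01, 3.90 and 8.69 in SIX2- libraries. It was at 0.886, 1.12 and 1.41 in GFP+ libraries, against 7.41, 7.34 and 10.95 in GFP- libraries. Every negative library was higher, and Chrd fell by 1.84 ± 0.22 (adjusted p = 2.68e-05) and 2.15 ± 0.22 (adjusted p = 4.36e-06). Sostdc1, which blocks BMP and Wnt ligands, averaged 0.0669 ± 0.0366 RPKM in SIX2+ and 3.79 ± 2.54 in SIX2- cells, and 0.202 ± 0.273 in GFP+ and 2.95 ± 1.70 in GFP- cells. It fell in both sorts (adjusted p = 0.00479 and 0.0143), the GFP call being lost without GFP+ replicate 3 (0.0535) or GFP- replicate 1 (0.0715). That call was also lost with a pseudocount of 5 (fold -0.59, adjusted p = 0.0864) and after quantile normalisation (0.0513). Nbl1, a BMP antagonist, averaged 37.5 ± 5.84 RPKM in SIX2+ and 23.9 ± 3.54 in SIX2- cells (adjusted p = 0.0663), and passed with the replicate block (0.0211) and without NZC replicate 2 (0.0074). Noggin (Nog), a BMP antagonist, at 0.318 to 3.19 RPKM, and follistatin (Fst), which blocks activins, at 0.194 to 1.58, were called in neither sort; both were at 0 in NZC replicate 2.

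The latent TGF-beta binding proteins split in direction. Ltbp1 (chromosome 17, 75005568 to 75392512, plus strand) was at 29.2, 31.8 and 30.1 RPKM in SIX2+ libraries, against 16.49, 19.6 and 20.8 in SIX2- libraries. It was at 65.7, 48.4 and 72.7 in GFP+ libraries, against 22.8, 18.2 and 13.5 in GFP- libraries. Groups were apart in both sorts, and Ltbp1 rose by 0.66 ± 0.18 (adjusted p = 0.0138) and 1.73 ± 0.18 (adjusted p = 3.88e-06). The SIX2 call was lost without SIX2+ replicate 2 (0.0525) or SIX2- replicate 1 (0.0708) and after rescaling to TPM (0.0537). Ltbp4 was at 6.61, 8.87 and 13.6 RPKM in SIX2+ libraries, against 26.9, 27.6 and 41.4 in SIX2- libraries. It was at 3.96, 3.55 and 4.96 in GFP+ libraries, against 47.7, 45.2 and 49.2 in GFP- libraries. It was lower in every positive library, by 1.65 ± 0.27 (adjusted p = 0.00038) and 3.24 ± 0.27 (adjusted p = 4.89e-07) on the log2 scale. Ltbp3 was at 8.94, 11.6 and 13.5 RPKM in SIX2+ libraries, against 18.8, 18.7 and 30.6 in SIX2- libraries. It was at 9.32, 10.4 and 15.5 in GFP+ libraries, against 28.5, 25.1 and 30.1 in GFP- libraries. Ltbp3 also fell without overlap, by 0.92 ± 0.22 (adjusted p = 0.00668) and 1.21 ± 0.22 (adjusted p = 0.000734). Stromal markers moved with the genes that fell: all 10 fell in both sorts, and they summed to 51.4 to 61.4 RPKM in SIX2+ and 1176 to 1854 in SIX2- libraries, and to 58.9 to 80.6 in GFP+ and 2183 to 3157 in GFP- libraries. None of the 10 was at 0 in all libraries of a group. Other lists also fell in the SIX2 and GFP sorts: podocyte (5 and 5 of 5 lower) and mural markers (5 and 6 of 7). So did ureteric (5 and 5 of 6 tested) and tubule markers (3 and 3 of 5 tested). In each sort 1 mural and 1 ureteric marker was higher. Early nephron markers were lower for 6 and 4 of 9 and higher for 0 and 2, erythroid markers lower for 0 and 7 of 7. Of 3 neural markers tested, 2 were higher in each sort. The part of these lists in the changes was not tested.

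Promoters are shown for a pair of genes that rose and a pair that fell in both sorts, as the 250 bases before the first listed transcription start in RefSeq (GRCm38.p6, plus strand for each), with the SMAD binding element CAGAC in capitals on either strand.
Bmper, chr9:23222826-23223075: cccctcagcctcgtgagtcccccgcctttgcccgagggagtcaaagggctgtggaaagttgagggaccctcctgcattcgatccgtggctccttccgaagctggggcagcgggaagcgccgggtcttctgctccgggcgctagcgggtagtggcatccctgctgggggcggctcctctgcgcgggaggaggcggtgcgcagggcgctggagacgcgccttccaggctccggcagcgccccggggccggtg
Ltbp1, chr17:75005279-75005528: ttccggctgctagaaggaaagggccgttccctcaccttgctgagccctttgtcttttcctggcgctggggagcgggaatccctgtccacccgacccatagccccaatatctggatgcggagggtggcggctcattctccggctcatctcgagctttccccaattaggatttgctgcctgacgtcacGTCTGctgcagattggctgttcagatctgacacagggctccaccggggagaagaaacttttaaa
Tgfb1, chr7:25686752-25687001: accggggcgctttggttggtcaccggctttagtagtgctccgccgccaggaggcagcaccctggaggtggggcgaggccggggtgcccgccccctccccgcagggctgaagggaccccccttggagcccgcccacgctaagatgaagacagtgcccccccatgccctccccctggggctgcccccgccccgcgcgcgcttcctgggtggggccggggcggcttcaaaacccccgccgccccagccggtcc
Eng, chr2:32646345-32646594: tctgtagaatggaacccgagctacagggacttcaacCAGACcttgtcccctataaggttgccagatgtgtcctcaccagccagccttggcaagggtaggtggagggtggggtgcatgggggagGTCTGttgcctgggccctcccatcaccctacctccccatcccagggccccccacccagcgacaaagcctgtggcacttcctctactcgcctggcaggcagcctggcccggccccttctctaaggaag
CAGAC stood once before Ltbp1, in 2 places before Eng and in neither of the other windows. The table held 37 of the 52 members, of which 15 (40.5%) had it, against 42.1% of all 27025 promoters of this length. The GC-rich SMAD element GGCGCC, searched on both strands and able to overlap CAGAC by 1 base at most, was in 9 of the 37 members (24.3%) and in 9.54% of all promoters. The element TCAGGTTTC, the MEF3 site, was in 0 of the 37 and in 0.403% of all. G and C made up 71.6% of the Bmper window, 56.8% of that of Ltbp1, 75.2% of that of Tgfb1 and 62.4% of that of Eng, against a median of 52% over all promoters. A match is a description of these letters, and no match says only that the letters are not in this window. GGCGCC holds only G and C, and its share was not compared with promoters of like G and C content. Bmp2, Bmp3, Bmp7, Tgfb3, Acvrl1, Tgfbr3, Smad2, Smad4, Smad7, Id1, Bambi, Nog, Chrdl1, Fst and Sostdc1 had no entry.

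**Figure D5:**
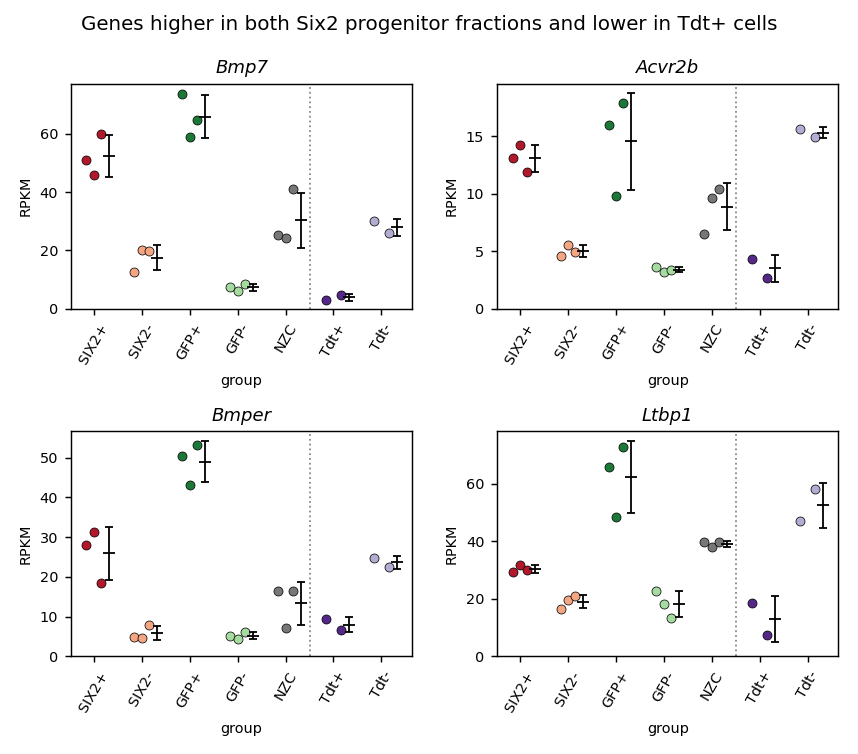
RPKM (y axis) of Bmp7, Acvr2b, Bmper and Ltbp1 by group (x axis); points are libraries and bars are mean ± SD. The dotted line separates the E16.5 from the separately normalised E14.5 libraries. SIX2+ and GFP+ points are above SIX2- and GFP- points, and Tdt+ points are below Tdt- points.

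Whether the change differed between the SIX2 sort and the GFP sort was tested as an interaction. No member was called with limma, 8 had an unadjusted p under 0.05, and over all genes 0.0469% were called with a higher and 0.0938% with a lower change in the SIX2 sort (0.141% in all) and 701 had an unadjusted p under 0.05. The lowest values among members were for Bmp7, with a change smaller by 1.48 ± 0.30 on the log2 scale in the SIX2 sort (adjusted p = 0.0933), Bmp4, with -1.31 ± 0.30 (0.134), Ltbp1, with -1.08 ± 0.25 (0.134), and Ltbp4, with 1.59 ± 0.38 (0.144). The difference for Bmp7 passed with the replicate number as a block (0.044), without SIX2- replicate 1 (0.0457) and without NZC replicate 2 (0.0364). Without NZC replicate 2, Ltbp4 (0.0348) and Bmp2 (-1.68, 0.0393) passed too, in a fit that called 0.688% of all genes. Other cell types differed between the sorts as well: early nephron markers had a median difference of -1.59, with 2 of 9 called lower, and summed to 265 to 426 RPKM in SIX2- and 139 to 171 in GFP- libraries. Erythroid markers had a median difference of 4.91, with 0 of 7 called, and summed to 3.91 to 16.3 RPKM in SIX2- and 818 to 8439 in GFP- libraries. Their part in the differences was not tested. Genes called in the one sort and not in the other, such as Bmp4 or Bmp6, were therefore not shown to differ between sorts.

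SIX2+ and GFP+ cells were also compared directly, in samples that differ in allele and in cell preparation, which cannot be told apart. Of the members, 1 was called higher and 2 lower, against 0.774% and 2.29% of all genes (3.06% in either direction). Nbl1 was at 34.4, 33.8 and 44.2 RPKM in SIX2+ libraries, against 18.1, 15.6 and 16.1 in GFP+ libraries. The groups were well apart, a change of 1.12 ± 0.23 (adjusted p = 0.0157), but the call was lost without SIX2+ replicate 3 (0.0809), GFP+ replicate 1 (0.0577) or GFP+ replicate 3 (0.0643) and after rescaling to TPM (0.0746). Gdf11 was at 2.30, 3.16 and 2.89 RPKM in SIX2+ libraries, against 7.36, 6.28 and 7.61 in GFP+ libraries, and fell by 1.10 ± 0.19 (adjusted p = 0.00619). Ltbp1, whose values are given above, was lower in SIX2+ than in GFP+ cells by 0.99 ± 0.18 (adjusted p = 0.00711), a call lost without GFP+ replicate 1 (0.0501). Without NZC replicate 2 the counts were 2 higher and 4 lower, in a fit that called 2.92% of all genes higher and 4.75% lower, with Ltbp4 (1.01 ± 0.27, adjusted p = 0.0627 with all libraries and 0.0133 without it) added to the higher and Bmp4 (-0.81 ± 0.21, 0.0563 and 0.0337) and Bmper (-0.92 ± 0.29, 0.113 and 0.0157) to the lower.

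The stromal comparison at E14.5 asked which members mark cells of the Foxd1 lineage. In Tdt+ cells 2 members, Tgfb3 and Chrd, rose and 10 fell relative to Tdt- cells: Bmp2, Bmp7, Gdf10, Acvr2b, Bmpr2, Tgfbr1, Id4, Bmper, Nog and Ltbp1. Over all 12364 genes tested at this stage, 1.22% were called higher, 7.21% lower and 8.44% in either direction. The median change was -0.51 over the 46 members tested and -0.04 over all genes, a median that rescaling to TPM moved to -0.26. Of all called genes 14.48% were higher, 6.47% after rescaling to TPM and 33.1% after quantile normalisation. With 2 libraries a group the calls were fragile. Leaving out a library leaves a lone one in its group, which is assumed to vary like the other group. The number of calls then moved with the library left out, among the members and over all genes. Among the called members, Bmp2, Bmp7 and Nog kept their call whichever library was left out. Both Tdt+ libraries had less depth than both Tdt- libraries, and the part of depth in the counts was not tested.

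Bmp7 was at 2.93 and 4.72 RPKM in Tdt+ libraries, against 30.0 and 25.8 in Tdt- libraries. Both Tdt+ libraries were far lower, and Bmp7 fell by 2.60 ± 0.27 (adjusted p = 0.0018). Bmp2, a BMP ligand, was at 0.207 and 0.200 RPKM in Tdt+ libraries, against 3.99 and 4.88 in Tdt- libraries. The groups were again far apart, and it fell by 2.17 ± 0.24 (adjusted p = 0.0021). Gdf10 fell by 1.71 ± 0.27 (adjusted p = 0.00818), averaging 0.814 ± 0.215 RPKM in Tdt+ and 4.998 ± 1.37 in Tdt- cells (SD, n = 2 each), and its call was lost without Tdt- replicate 2 (0.0748). Tgfb3 was at 46.4 and 32.6 RPKM in Tdt+ libraries, against 15.04 and 16.2 in Tdt- libraries. The Tdt+ libraries were the higher ones, and Tgfb3 rose by 1.27 ± 0.25 (adjusted p = 0.0183), a call lost without Tdt- replicate 1 (0.213) or 2 (0.188) and after rescaling to TPM (0.102). Bmp4 was at 8.19 and 4.96 RPKM in Tdt+ and 15.8 and 13.8 in Tdt- libraries, a change of -1.09 ± 0.28 that missed the threshold (adjusted p = 0.0555). The remaining tested ligands, Bmp3, Bmp5, Bmp6, Gdf11, Tgfb1 and Tgfb2, were not called, with changes between -0.80 (Bmp5) and 0.32 (Bmp3).

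Acvr2b was at 4.33 and 2.66 RPKM in Tdt+ libraries, against 15.6 and 14.98 in Tdt- libraries. Bmpr2 was at 8.19 and 7.17 in Tdt+ libraries, against 15.8 and 20.5 in Tdt- libraries. Tgfbr1 was at 15.3 and 9.55 in Tdt+ libraries, against 25.6 and 28.0 in Tdt- libraries. All 3 receptors were lower in both Tdt+ libraries: Acvr2b fell by 1.88 ± 0.27 (adjusted p = 0.00585), Bmpr2 by 1.13 ± 0.25 (0.0287) and Tgfbr1 by 1.08 ± 0.27 (0.0468). Leaving out either Tdt- library ended the 3 calls (0.0920 to 0.458), and Tgfbr1 was also lost without Tdt+ replicate 2 (0.0572) and after rescaling to TPM (0.0655). Eng was at 7.76 and 7.80 RPKM in Tdt+ and 11.7 and 15.7 in Tdt- libraries, a change of -0.72 ± 0.25 that was not called (adjusted p = 0.130). Acvrl1 averaged 3.44 ± 0.224 RPKM in Tdt+ and 6.30 ± 1.15 in Tdt- cells (adjusted p = 0.147). Endothelial markers summed to 15.9 to 26.2 RPKM in Tdt+ and 100 to 128 in Tdt- libraries; 8 of the 10 fell, 5 were below 1 RPKM in both Tdt+ libraries and 1 was at 0 in both. Nephron progenitor markers also moved with the genes that fell, 7 of 8 being lower in Tdt+ cells, with none at 0 in both libraries of a group. So did early nephron markers (7 of 9 lower and 1 higher, 1 at 0 in both Tdt+ libraries), which summed to 100.5 to 112 RPKM in Tdt+ and 206 to 217 in Tdt- libraries. Podocyte markers (5 of 5 lower, none at 0 in both) summed to 6.34 to 6.69 RPKM in Tdt+ and 42.2 to 56.1 in Tdt- libraries. Leukocyte markers (6 of 7 tested lower, 2 of 8 at 0 in both) summed to 2.11 to 6.68 RPKM in Tdt+ and 29.2 to 89.5 in Tdt- libraries. The part of these markers in the changes was not tested. The other receptors Bmpr1a, Bmpr1b, Acvr1, Acvr1b, Acvr2a, Tgfbr2 and Tgfbr3 were not called, and neither was any of the 8 SMAD genes, with changes between -0.63 (Smad9) and 0.32 (Smad1).

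Id4 was at 1.39 and 3.43 RPKM in Tdt+ libraries, against 15.9 and 28.9 in Tdt- libraries. Both Tdt+ libraries were lower, and Id4 changed by -2.79 ± 0.39 (adjusted p = 0.00505), a call lost without Tdt- replicate 2 (0.0649). Id1, Id2 and Id3 changed by 0.31 ± 0.38, 0.01 ± 0.27 and 0.19 ± 0.37, and Bambi by -0.60 ± 0.24; none was called, and the sign of Id2 and Id3 turned after rescaling to TPM (-0.21 and -0.04) and after quantile normalisation (-0.28 and -0.24). Among the ligand-binding proteins, Bmper was at 9.28 and 6.61 RPKM in Tdt+ libraries, against 24.9 and 22.6 in Tdt- libraries. Chrd was at 10.1 and 9.20 in Tdt+ libraries, against 4.21 and 4.49 in Tdt- libraries. The groups were apart for both genes and in opposite directions: Bmper fell by 1.48 ± 0.25 (adjusted p = 0.0105) and Chrd rose by 0.99 ± 0.24 (0.0435). Either call was lost without Tdt- replicate 1 (0.180 for Bmper and 0.443 for Chrd) or Tdt- replicate 2 (0.147 and 0.413), and that of Chrd after rescaling to TPM (0.198). Noggin fell by 1.29 ± 0.22 (adjusted p = 0.0119), averaging 0.233 ± 0.0194 RPKM in Tdt+ and 2.02 ± 0.181 in Tdt- cells, a call lost after quantile normalisation (fold -0.65, 0.154); rescaling to TPM gave a fold of -2.12. Fst and Fstl1 were not called. Nbl1, with a change of 0.89 (limma adjusted p = 0.0532), and Sostdc1, with -1.48 (0.0542), narrowly missed the threshold. Ltbp1 was at 18.6 and 7.29 RPKM in Tdt+ libraries, against 46.9 and 58.1 in Tdt- libraries. The Tdt+ libraries were lower although apart from each other, and Ltbp1 fell by 2.06 ± 0.38 (adjusted p = 0.0157), a call lost without Tdt- replicate 1 (0.0900) or 2 (0.168). Ltbp3 and Ltbp4 changed by 0.17 ± 0.23 and -0.69 ± 0.30 (adjusted p = 0.703 and 0.218), and that of Ltbp3 was -0.05 after rescaling to TPM.

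Bmp7, Acvr2b, Bmper and Ltbp1 were thus called higher in SIX2+ and GFP+ cells and lower in Tdt+ cells, in tables normalised separately. Chrd and Tgfb3 were called lower in SIX2+ and GFP+ cells and higher in Tdt+ cells. Tgfb1, Eng, Acvrl1 and Tgfbr3, all lower in SIX2+ and GFP+ cells, changed in Tdt+ cells by -0.54 ± 0.26, -0.72 ± 0.25, -0.71 ± 0.26 and -0.12 ± 0.32, with none called and that of Tgfbr3 at 0.05 after quantile normalisation.

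Members that did not pass the filter in either table were low throughout. The highest value in any library was 0.242 RPKM for Bmp8a, 1.47 for Inhba and 0.969 for Inhbb (subunits of activins), 0.792 for Chrdl1 and 0.473 for Grem1 (BMP antagonists), and 0.390 for Ltbp2. Groups that did not overlap were counted for 58.7% of tested members in the SIX2 sort, against 47.3% of all genes, 56.5% against 53.0% in the GFP sort and 65.2% against 54.5% at E14.5. Exons of Eng, Chrd, Bmp6, Acvr2a and Id4 overlap those of a named gene on the opposite strand (Fpgs, Thpo, Txndc5, Orc4 and A330033J07Rik), and those of Bmp4, Bmp5, Tgfb2, Tgfb3, Bmpr1a, Acvrl1, Tgfbr3, Smad5 and Fst overlap predicted genes. Whether reads were counted by strand is not given in the sources used here, so reads could not be assigned between such partners with certainty.

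Another 67 genes of the same pathways served as a wider list, of which 42 were tested. In SIX2+ cells 4 rose and 15 fell, in GFP+ cells 6 rose and 17 fell, and in Tdt+ cells 0 rose and 5 fell. These counts stand beside 8.36% of all genes higher and 15.9% lower in SIX2+ cells, 15.9% and 17.0% in GFP+ cells, and 1.22% and 7.21% in Tdt+ cells. Emilin1, a matrix protein that holds back TGF-beta maturation, was at 14.8, 13.3 and 21.9 RPKM in SIX2+ libraries, against 201, 203 and 239 in SIX2- libraries. It fell by 3.63 ± 0.19 in SIX2+ cells (adjusted p = 8.18e-09) and by 4.16 ± 0.19 in GFP+ cells (2.11e-09). Lrrc32, which tethers latent TGF-beta to the cell surface, fell by 3.32 ± 0.21 in SIX2+ cells and 3.66 ± 0.21 in GFP+ cells. It averaged 0.168 ± 0.0378 RPKM in SIX2+ and 10.8 ± 2.19 in SIX2- cells (SD, n = 3 each). Ctgf, a secreted matrix-associated protein and TGF-beta target, fell by 3.25 ± 0.44 and 3.24 ± 0.44. Tob1, an antiproliferative protein that binds SMADs, rose by 1.63 ± 0.32 and 1.44 ± 0.32, and averaged 49.9 ± 9.66 RPKM in SIX2+ and 15.5 ± 3.59 in SIX2- cells. Tgif1, a SMAD corepressor, rose by 0.56 ± 0.18 and 0.77 ± 0.18. Sost, a secreted Wnt and BMP antagonist, rose by 1.84 ± 0.26 in SIX2+ cells, and Hey1, a transcriptional repressor induced by Notch and BMP, by 1.06 ± 0.36 in GFP+ cells (adjusted p = 0.0376). In SIX2+ cells the change of Hey1 was -0.51 ± 0.36 (adjusted p = 0.373), with overlapping groups, and the difference between sorts was not called (-1.57 ± 0.51, adjusted p = 0.402). In Tdt+ cells Hey1 fell by 2.07 ± 0.30 (adjusted p = 0.00602), at 1.86 and 3.55 RPKM in Tdt+ and 16.03 and 12.5 in Tdt- libraries. Thbs1, or thrombospondin-1, an activator of latent TGF-beta, fell by 1.98 ± 0.37 in Tdt+ cells (adjusted p = 0.0164), at 13.4 and 12.6 RPKM in Tdt+ and 35.1 and 83.2 in Tdt- libraries.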

How the data were processed

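RNA was isolated with the RecoverAll and RNeasy Micro kits and made into stranded mRNA libraries with a Kapa kit, per the labels' protocols, which do not say which library had which isolation kit. Per the submitters' processing notes, the mouse build was mm10 and the tools included TopHat2 and Partek. Neither the annotation nor the use of strand in counting was found in the sources used here. For each gene and library the authors deposited a single value, with 15 libraries at E16.5 and 4 libraries at E14.5. The deposited values are taken as RPKM: the tables are titled TPM, but column sums ranged from 338724 to 428995 and from 341435 to 452553, whereas sums of values times exonic kilobases varied by only 1.91% and 1.56% (coefficient of variation). The design had assumed TPM; the test is the same.

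From both tables, 27 names each that had become dates were left out. Positions and lengths came from GENCODE M21 (GRCm38, the same assembly as mm10), which held 96.1% and 96.3% of the names and all 52 members. Log2(RPKM + 1) was fitted with limma 3.58.1 in R 4.3.3 (moderated test with intensity trend, two-sided, Benjamini-Hochberg over all genes tested), keeping genes that reached 1 RPKM in 3 libraries or more (E16.5; 5 group means, 10 residual degrees of freedom) or in 2 or more (E14.5; 2 degrees of freedom). Adjusted p under 0.05 was called, and every adjusted p is limma's. Files were read in R with data.table, version 1.17.8; python 3.11.15 with pandas 2.3.3, numpy 2.4.6 and matplotlib 3.10.9 gave levels, depth and plots. The fits were tested on simulated data.

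Depth is approximate: it was estimated from values worth about 1 read, of which 34.2% to 62.0% per library lay within 0.05 of 1 read, with the value of a read chosen to make that share large. Counts were not recovered and no count model was used. No 2 libraries of a group held identical values. Same-numbered libraries deviated together in SIX2+ and SIX2- cells (r = 0.64, 0.28 and 0.68 across genes). So did those in GFP+ and GFP- cells (0.45, 0.44 and 0.39). Both were treated as pairs only in the fits with the replicate number as a block. SIX2+ and GFP+ libraries (0.40, -0.02 and 0.58) were not paired in any fit. The main fit had no block, so its adjusted p-values do not use the pairing.

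The members, gene lists and tests were chosen with earlier results of these data known. Values in every sample are given for up to 4 called members per role and comparison with a mean of at least 5 RPKM in the higher group, and up to 3 genes of the wider list per direction are named; values in every sample for Bmp2 and Bmp4 at E14.5, Eng at E14.5, and Nbl1, Gdf11 and unsorted Bmp7 were chosen after being seen. Alternatives changed the pseudocount, filter, scaling, trend, weights, block and libraries.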

Additional observations from a re-analysis of the deposited data

How the results depend on the processing

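Every fold change of a called member kept its direction under each alternative run; signs turned only among members with an unadjusted p of 0.05 or more, a split made after those turns were seen. Higher and lower member counts left 1.5 times the main count in the following cases. Brackets give the share of all genes that the same fit called in that direction. For Tdt+ over Tdt- cells, the shares of fits with every library follow the counts instead. In SIX2+ over SIX2- cells, rescaling to TPM gave 3 higher (6.28%) and library weights 10 (26.6%). Leaving out 1 library gave 3 to 6 higher (5.2% to 13.5%) and 13 to 19 lower (12.6% to 19.4%). In GFP+ over GFP- cells, weights gave 8 higher (31.4%). Leaving out 1 library there gave 4 to 7 higher (10.7% to 23.5%) and 14 to 16 lower (13.5% to 20.9%). In Tdt+ over Tdt- cells, no filter on low values gave 0 higher and 1 lower, and TPM 0 higher; leaving out 1 library gave 0 to 3 and 3 to 18. The Tdt fit without the filter called 0.0422% of all genes higher and 1.16% lower, and the Tdt fit after TPM rescaling called 0.469% higher. With a Tdt library left out, the calls over all genes moved too, so those ranges are not shown to be particular to the members. For the difference between sorts, weights gave 4 higher (4.68%) and 6 lower (7.29%), and fits of only the groups compared 1 (0.508%) and 2 (0.563%). Leaving out 1 library gave 0 to 1 higher (0.00781% to 0.289%) and 0 to 2 lower (0% to 0.398%). In SIX2+ over GFP+ cells, a pseudocount of 0.1 gave 2 higher (0.766%), TPM 0 (0.406%), and weights 6 higher (12.3%) and 10 lower (11.8%). Only the groups compared gave 3 higher (2.41%) and 4 lower (3.99%). Leaving out 1 library gave 0 to 2 higher (0.234% to 2.92%) and 1 to 4 lower (0.734% to 4.75%). The cause was not tested. With the replicate number as a block, counts were 7 higher (11.4%) and 16 lower (17.5%) in SIX2+ cells. In GFP+ cells they were 5 (20%) and 16 (19.2%), and between sorts 0 (0.0391%) and 1 (0.172%). In SIX2+ over GFP+ cells 2 were higher (1.8%). Beyond the calls named above, Bmp4 (limma adjusted p = 0.0339) and Ltbp4 (adjusted p = 0.0355) passed there and no paired call was lost. Tdt+ and Tdt- libraries share only a number (r = 0.40 for their deviations). That block gave 17 lower, in a fit that called 13.7% of all genes lower. Among called members, 16 of 21 in the SIX2 sort, 17 of 20 in the GFP sort and 1 of 12 at E14.5 (Bmp2) passed under every alternative run. Depth limits low values most in NZC replicate 2 and the Tdt+ libraries.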
